A study of Mus musculus with 12 samples.

Results

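Gimap3, Gimap4, Gimap6 and Gimap7 are members of the GIMAP family, the GTPases of immunity-associated proteins. They were chosen by their differences between regulatory T (Treg) cells of the injured spinal cord and of the spleen, and make up 4 of the 1284 genes in the deposited Treg table. The spinal cord and spleen levels of these 4 genes are therefore given as a description, without a test. The deposited microglia table, with 2186 genes, held no gene of the family.

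The study sequenced messenger RNA in bulk from 12 mouse libraries in 4 groups of 3. Treg cells, which hold immune responses in check, came from the damaged cord (n = 3) or the spleen (n = 3) of mice at day 14 after a spinal cord injury. Microglia, brain and cord macrophages grown here as primary cells, were kept with Treg cells (n = 3) or left unstimulated as the control (n = 3). Strain, sex, age, the way the Treg cells were purified and the origin of the co-cultured Treg cells are not given in the sources used here. Both Treg groups came from injured animals, so no uninjured level of any gene was measured. Whether the 3 libraries of a group are different animals or cultures is not stated in the labels, so p-values reflect only their spread, part of which may be technical. Levels are in FPKM, fragments scaled by transcript length and library total, and can be set side by side between genes. In bulk samples, fewer cells of a type and less RNA per cell cannot be told apart.

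GIMAP proteins belong to the AIG1 family of small GTPases and are made mainly by lymphocytes, where several of them sit on membranes of organelles. The family is known from rats and mice that lose their peripheral T cells when Gimap5 is defective. Members differ in their reported roles, since some are needed for lymphocyte survival and others promote cell death or act in autophagy. In mice Gimap3 acts together with Gimap5 in the upkeep of T cells, and its human counterpart is a pseudogene. Gimap4 has been linked to a faster execution of T cell death, Gimap6 binds an autophagy protein of the Atg8 family, and human GIMAP7 has been studied on lipid droplets and as a partner that speeds up GTP hydrolysis by other GIMAPs.

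All 4 genes lie in 1 cluster on mouse chromosome 6 (GRCm38.p6, chr6:48647186-48770851), which spans 123.7 kb and holds 8 GIMAP genes. From its start the order is Gimap8, Gimap9, Gimap4, Gimap6, Gimap7, Gimap1, Gimap5 and Gimap3. Gimap4 (NCBI gene 107526, chr6:48684578-48692062) and Gimap7 (gene 231932, chr6:48718621-48724636) are read from the plus strand. Gimap6 (gene 231931, chr6:48701583-48708244) and Gimap3 (gene 83408, chr6:48764464-48770851) are read from the minus strand. Gimap1, Gimap5, Gimap8 and Gimap9 are not analysed here.

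**Figure D1:**
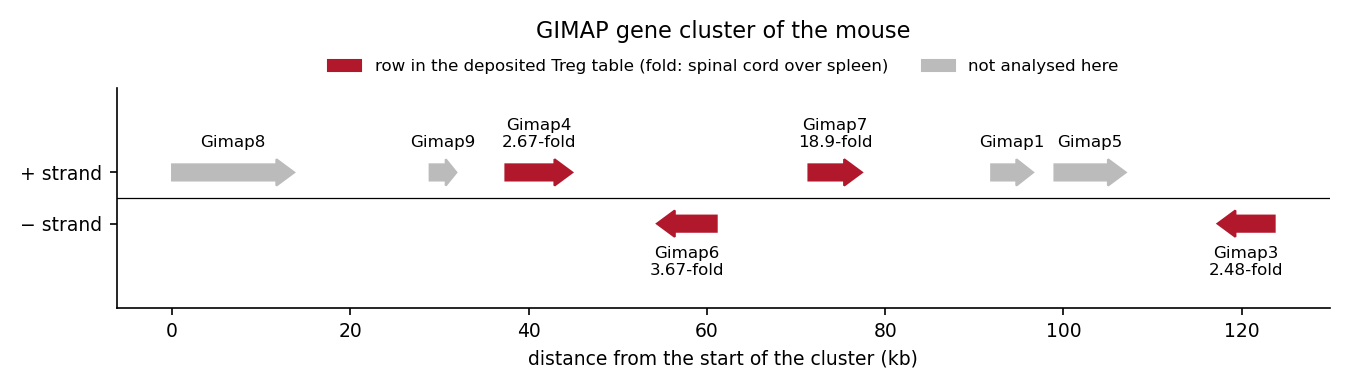
Map of the GIMAP cluster, drawn to scale, with distance from its start in kb on the horizontal axis and the strand on the vertical axis. Arrows are genes in the direction of transcription. The 4 genes with a row in the Treg table are red and carry the fold of mean FPKM, spinal cord over spleen, and they are interspersed with the 4 grey genes. Gimap7, with 18.9-fold, lies between Gimap6, with 3.67-fold, and Gimap1.

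The proteins share the phosphate-binding loop (P-loop, the G1 motif) that holds the phosphates of GTP. The coding stretch of this loop is shown because it is the part of the coding sequence in which all 4 genes can be set side by side as GTPases. Each stretch is 24 bases long and encodes 8 codons, is written 5′ to 3′ on the coding strand from GENCODE transcripts (GRCm38), and has in capitals the 14 bases that all 4 genes have in common.
Gimap4: GGaAAAaCtGGagcaGGaAAgAGt
Gimap6: GGgAAAaCaGGaagcGGgAAaAGt
Gimap7: GGgAAAaCaGGaagtGGaAAgAGc
Gimap3: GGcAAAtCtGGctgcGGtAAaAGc

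The stretch lies in exon 3 of Gimap4 (chr6:48690421-48690444, codons 37 to 44) and in exon 3 of Gimap6 (chr6:48702750-48702773, codons 110 to 117). In Gimap7 it lies in exon 2 (chr6:48723524-48723547, codons 15 to 22), and in Gimap3 in exon 5 (chr6:48765887-48765910, codons 29 to 36). The reading frames have 328 codons in Gimap4, 305 in Gimap6, 293 in Gimap7 and 301 in Gimap3. Between pairs of the 4 genes, identity over aligned coding bases ran from 58.0% (Gimap7 and Gimap3) to 64.2% (Gimap6 and Gimap3). Gimap3 and Gimap5 were 90.4% identical over 895 aligned bases, so reads from this pair of genes could be confused. Of the 50-base words in the Gimap3 transcript, 206 of 2096 (9.83%) also occurred in a transcript of another gene, Gimap5 among them. Of its 100-base words, 41 of 2046 (2.0%) occurred in Gimap5. For Gimap7, 32 of 1220 words of 50 bases (2.62%) occurred in the predicted gene Gm28053, and none of 100 bases. No word of either length in Gimap4 or Gimap6 occurred elsewhere. The values of Gimap3 carry this uncertainty, because the treatment of reads that fit several paralogs is not stated in the sources used here.

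Gimap4 was the member with the highest level in both tissues. It stood at 335.05, 258.32 and 373.31 FPKM in spinal cord libraries 1, 2 and 3, against 125.06, 121.22 and 115.19 FPKM in spleen libraries 1, 2 and 3. Every spinal cord library lay above every spleen library, and the spleen libraries lay close together. The means were 322.2 ± 58.6 FPKM in the spinal cord and 120.5 ± 4.98 FPKM in the spleen (SD, n = 3 each), a 2.67-fold ratio. On the log2(FPKM + 1) scale, the difference was 1.4 (SE 0.16).

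Gimap6 had nearly the level of Gimap4 in the spinal cord and stood further below it in the spleen, most of all in spleen library 1. It stood at 306.37, 224.51 and 299.6 FPKM in spinal cord libraries, against 53.63, 84.91 and 87.97 FPKM in spleen libraries. The groups did not overlap, and spleen library 1 was the lowest of all. The means were 276.8 ± 45.4 FPKM in the spinal cord and 75.5 ± 19.0 FPKM in the spleen, a 3.67-fold ratio and a log2 difference of 1.88 (SE 0.21).

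Gimap3 stood at 223.65, 146.76 and 180.4 FPKM in spinal cord libraries, against 66.17, 82.68 and 73.37 FPKM in spleen libraries. The groups did not overlap, and the spread was wider in the spinal cord. The means were 183.6 ± 38.5 FPKM in the spinal cord and 74.1 ± 8.28 FPKM in the spleen, a 2.48-fold ratio and a log2 difference of 1.28 (SE 0.18), the smallest among the 4 genes.

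Gimap7 was the member with the lowest level and the largest ratio between the tissues. It stood at 57.11, 30.31 and 56.39 FPKM in spinal cord libraries, against 3.52, 1.55 and 2.53 FPKM in spleen libraries. Spinal cord library 2 was near the middle between the other spinal cord libraries and the spleen, yet far above every spleen value. The means were 47.9 ± 15.3 FPKM in the spinal cord and 2.53 ± 0.985 FPKM in the spleen, an 18.9-fold ratio. The log2 difference was 3.78 (SE 0.32), a scale that understates the change of a gene this low in the spleen.

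**Figure D2:**
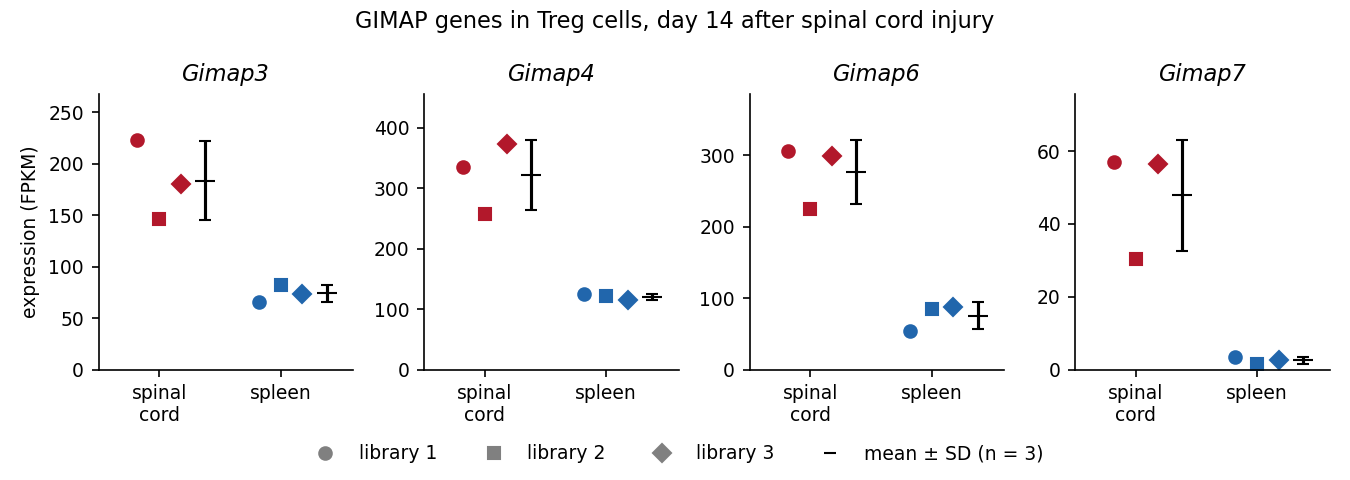
FPKM of each GIMAP gene (vertical axis, linear and starting at 0, with its own range per gene) in the 3 spinal cord libraries (red, left) and the 3 spleen libraries (blue, right) of Treg cells. Symbols mark the library number, and black bars give the mean ± SD (n = 3). In each panel all red points lie above all blue ones, and the square, spinal cord library 2, is the lowest red point.

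The table was limited by the authors to changed genes (a log2 fold change of 1 or more in size, Q under 0.05), so all 4 genes had to differ. In the authors' deposited table their log2 fold changes were 1.43 for Gimap3, 1.54 for Gimap4, 2.0 for Gimap6 and 4.37 for Gimap7. Their Q values in the authors' deposited table were 2.59e-13, 1.44e-17, 1.27e-18 and 1.93e-24 in the same order. Gimap3 lay nearest to the limit of the selection, and genes outside it had no row. All 4 passed a minimum mean of 1 FPKM, as did 1072 of the 1284 genes. Of these 1072 genes, 633 (59.0%) had every spinal cord library above every spleen library and 413 (38.5%) the reverse. The lack of overlap in the GIMAP genes was thus shared with the majority of this preselected table. Their median log2 difference was 1.64, against 0.95 for all genes tested and 1.32 for all genes called higher. Ranked from the highest log2 difference among the 1072 genes, Gimap7 was 15th, Gimap6 165th, Gimap4 301st and Gimap3 346th.

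The ratios depended on the scaling, because the FPKM summed over the selected genes were 111243 to 134887 in the spinal cord libraries and 64893 to 65362 in the spleen libraries. Setting all libraries to equal totals over the table's genes brought the median log2 difference of all genes to 0.09 and that of the GIMAP genes to 0.36 for Gimap3, 0.47 for Gimap4, 0.95 for Gimap6 and 2.99 for Gimap7. With equal totals Gimap3 stood at 191.3, 103.5 and 132.9 in the spinal cord libraries, against 96.3, 121.2 and 107.0 in the spleen libraries. These values overlapped, and the ratio of means was 1.32-fold. Gimap4 stood at 286.5, 182.2 and 274.9 in the spinal cord libraries, against 182.0, 177.7 and 167.9 in the spleen libraries, so that spinal cord library 2 barely cleared the highest spleen value. Gimap6 and Gimap7 kept groups apart, with ratios of 1.94-fold and 10.1-fold. Quantile normalization gave log2 differences of 0.64 for Gimap3, 0.64 for Gimap4, 1.21 for Gimap6 and 3.38 for Gimap7, beside a median of 0.54 over all genes. All 4 genes were above the median gene under each of the 3 scalings, and the margin was narrow for Gimap3 and Gimap4. The 4 genes were chosen by this difference, among preselected genes of both directions. Their place above the median is therefore a description and no evidence of robustness. Because they rest on preselected genes, the equal totals and the quantiles take away some of any common shift by construction.

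The make-up of the GIMAP signal differed between the tissues, and this within-library comparison is not altered by multiplying a library by a constant. The 4 genes summed to 830.6 ± 148.0 FPKM in the spinal cord and 272.6 ± 21.7 FPKM in the spleen. Gimap7 made up 6.19%, 4.59% and 6.20% of this sum in the spinal cord libraries, against 1.42%, 0.534% and 0.907% in the spleen libraries. Gimap6 made up 33.4% ± 0.564 in the spinal cord and 27.5% ± 5.2 in the spleen. Gimap3 took 22.1% ± 2.21 in the spinal cord and 27.1% ± 1.17 in the spleen, and Gimap4 took 38.8% ± 2.37 in the spinal cord and 44.5% ± 5.11 in the spleen. No share of any of the 4 genes overlapped between the tissues, although for Gimap4 the ranges nearly met, at 36.3% to 41.0% in the spinal cord and 41.3% to 50.4% in the spleen. The shares of a library add up to a whole, so larger shares of Gimap6 and Gimap7 mean smaller ones of the others. These are therefore not 4 separate results. How often shares in other sets of genes fail to overlap was not measured. The shares given here come from the values by which the 4 genes were chosen, and are a description. For Gimap6 they ran from 32.9% to 34.0% in the spinal cord and from 21.6% to 31.5% in the spleen.

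**Figure D3:**
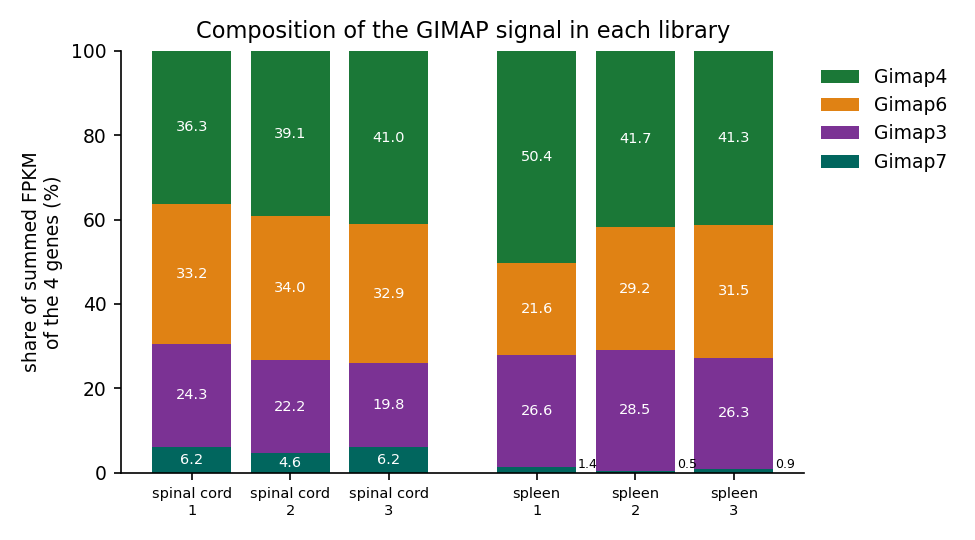
Share of each GIMAP gene in the summed FPKM of the 4 genes (vertical axis, percent) in the 3 spinal cord libraries (left) and the 3 spleen libraries (right). Numbers give the share in percent, and for Gimap7 in the spleen they stand to the right of its thin segment. Gimap7 takes 4.59% to 6.20% in the spinal cord and 0.534% to 1.42% in the spleen.

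The order of the levels did not separate the tissues. In each spinal cord library it was Gimap4, Gimap6, Gimap3 and Gimap7. Spleen libraries 2 and 3 had this order too, and in spleen library 1 Gimap3 lay above Gimap6. Gimap4 and Gimap6 were neighbours whose ranges overlapped over the spinal cord libraries, with Gimap4 at 1.09, 1.15 and 1.25 times the FPKM of Gimap6. In spleen libraries 1, 2 and 3 Gimap4 was at 2.33, 1.43 and 1.31 times the FPKM of Gimap6. Gimap6 lay above Gimap3 in all 3 spinal cord libraries, at 1.37, 1.53 and 1.66 times its FPKM. In the spleen the same ratio was 0.81, 1.03 and 1.2, so that these neighbours could not be put in an order there. Gimap4 exceeded Gimap7 by 5.87, 8.52 and 6.62 times in the spinal cord libraries, against 35.5, 78.2 and 45.5 times in the spleen libraries. Among the 1072 genes, Gimap7 ranked 248th by mean FPKM in the spinal cord and 880th in the spleen. The ranks of Gimap4 were 55th in the spinal cord and 91st in the spleen.

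The 4 genes had their lowest spinal cord level in the same library. Spinal cord library 2 was the lowest of its group for each of them, at 79.9% of the group mean for Gimap3, 80.2% for Gimap4, 81.1% for Gimap6 and 63.2% for Gimap7. That library was also the lowest for 241 of the 629 other genes whose spinal cord values all lay above the spleen values (38.3%). In the spleen, library 1 held Gimap6 at 71.0% but Gimap7 at 138.9% of the group mean. Leaving out spinal cord library 2 or any other single library gave log2 differences between 1.13 and 1.43 for Gimap3, 1.28 and 1.55 for Gimap4, 1.65 and 2.02 for Gimap6, and 3.56 and 4.07 for Gimap7. The 4 genes were chosen by this difference and their groups did not overlap, so no such fit could reverse it. These ranges are therefore a description and no evidence of robustness.

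The promoters are shown because the 4 genes were higher together. Each is the 250 bases before the RefSeq start of the gene (GRCm38.p6), written 5′ to 3′ in the direction of transcription, with capitals for any match to the 9 short motifs searched on both strands.
Gimap4: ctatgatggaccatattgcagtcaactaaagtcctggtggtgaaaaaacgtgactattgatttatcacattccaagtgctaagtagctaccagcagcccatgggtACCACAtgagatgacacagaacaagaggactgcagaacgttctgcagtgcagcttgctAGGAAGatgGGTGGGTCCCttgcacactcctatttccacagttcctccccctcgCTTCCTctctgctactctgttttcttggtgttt
Gimap6: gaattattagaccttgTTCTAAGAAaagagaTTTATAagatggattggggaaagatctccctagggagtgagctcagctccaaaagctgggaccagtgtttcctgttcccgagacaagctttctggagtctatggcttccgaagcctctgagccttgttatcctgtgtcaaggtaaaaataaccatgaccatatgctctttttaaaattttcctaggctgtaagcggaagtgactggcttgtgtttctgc
Gimap7: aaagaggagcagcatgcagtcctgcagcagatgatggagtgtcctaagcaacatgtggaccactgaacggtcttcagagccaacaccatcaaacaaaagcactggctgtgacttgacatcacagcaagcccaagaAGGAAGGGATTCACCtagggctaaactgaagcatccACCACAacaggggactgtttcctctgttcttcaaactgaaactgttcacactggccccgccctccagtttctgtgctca
Gimap3: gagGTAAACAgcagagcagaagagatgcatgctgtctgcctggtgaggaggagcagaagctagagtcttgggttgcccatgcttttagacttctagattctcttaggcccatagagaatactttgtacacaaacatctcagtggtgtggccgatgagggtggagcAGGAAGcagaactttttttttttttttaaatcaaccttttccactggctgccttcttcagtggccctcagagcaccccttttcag

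These windows lie at chr6:48684328-48684577 (plus strand) for Gimap4, chr6:48708245-48708494 (minus strand) for Gimap6, chr6:48718371-48718620 (plus strand) for Gimap7 and chr6:48770852-48771101 (minus strand) for Gimap3. The ETS core was searched only in the form AGGAAG, which was found in Gimap3, Gimap4 and Gimap7. This form occurred in 29.2% of 27025 RefSeq promoter windows of the same length. Other forms of the core, such as the cggaag near the end of the Gimap6 window, were not searched. The RUNX core TGTGGT was found in Gimap4 and Gimap7 (14.2% of all windows), and so was the NF-kappaB core, GGGA and CC with any 4 bases between them (17.3%). In Gimap7 the ETS match, 115 to 110 bases before the start, shares a base with the NF-kappaB match at 110 to 101. The forkhead core TGTTTAC occurred in Gimap3 alone (3.09% of all windows), at 247 to 241 bases before its start. The STAT core TTCNNNGAA (7.18%) and the TATA box sequence TATAAA (13.0%) occurred in Gimap6 alone. The TATAAA match lay 219 to 214 bases before the start and on the strand opposite to transcription, so it is a match in sequence only. The interferon-stimulated response core, GAAA repeated after any 2 bases (3.04%), the TCF/LEF core CTTTGA (14.0%) and the E-box CACGTG (6.05%) were in none of these 4 windows. No motif of the 9, in the form searched, was found in all 4 promoters.

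The genes whose pattern over the 6 Treg libraries was nearest to the mean GIMAP pattern were sought by the root mean square distance between profiles of log2(FPKM + 1), each centred on its own mean. They share the libraries and the selection of the table with the GIMAP genes, and the distance is a description. The nearest was Ccr7, the chemokine receptor for homing to lymph nodes, at a distance of 0.0912. It stood at 2065.07, 1603.33 and 1917.48 FPKM in spinal cord libraries, against 434.36, 423.45 and 424.94 FPKM in spleen libraries. Next came Mxd1, a transcriptional repressor of the MYC network (0.108), Ecm1, a secreted matrix protein (0.125), Slfn5, a Schlafen protein (0.125), and Tigit, an inhibitory receptor of T cells (0.133). Ap3b1, a subunit of the AP-3 adaptor complex (0.136), Pck2, the mitochondrial phosphoenolpyruvate carboxykinase (0.139), and Cnp, a gene known best from oligodendrocytes (0.14), completed the 8 nearest. The GIMAP genes themselves lay farther from their own mean, at 0.23 for Gimap6, 0.36 for Gimap4, 0.42 for Gimap3 and 0.89 for Gimap7. With equal totals 7 of the 8 genes were again among the nearest, and with Pearson correlation as the measure 4 of the 8 were.

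**Figure D4:**
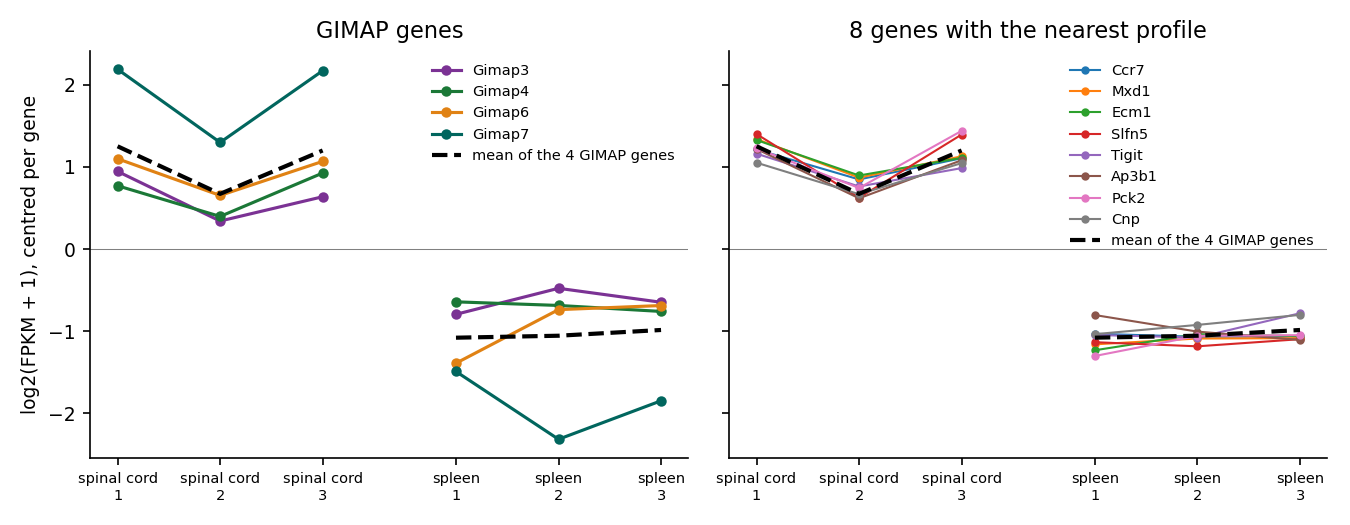
Profiles over the 3 spinal cord libraries (left of each panel) and the 3 spleen libraries (right) on the log2(FPKM + 1) scale, each gene centred on its own mean. The left panel shows the 4 GIMAP genes and the right panel the 8 genes with the nearest profile, and the dashed line in both is the mean of the GIMAP genes. Gimap7 stands farthest from the mean (0.89), and the right panel follows the dashed line because its genes were picked for that.

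Genes of pathways in which GIMAP proteins are known to act were read from lists, and each gene was tested with limma over the 1072 genes of the Treg table. In that fit, at a threshold of 0.05 after Benjamini-Hochberg adjustment, 654 genes (61.0%) were higher in the spinal cord and 414 genes (38.6%) were lower. Of all called genes 61.2% were higher, against 39.1% with equal totals and 54.4% after quantile normalization. The table and its directions were selected on these same libraries, so such counts are no independent evidence.

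The list of regulators of apoptosis had 39 genes, of which 5 had a row, 2 rose and 3 fell, with a median log2 difference of -1.23. Fasl, the death ligand of activated T cells, stood at 117.86, 85.79 and 122.86 FPKM in spinal cord libraries, against 15.33, 11.36 and 18.18 FPKM in spleen libraries (log2 difference 2.79, SE 0.22, limma adjusted p = 1.12e-06). Traf1, an adaptor of TNF receptors, averaged 160.4 ± 19.0 FPKM in the spinal cord and 52.4 ± 15.4 FPKM in the spleen (limma adjusted p = 2.65e-05). The fallers act on the side of cell death. Pmaip1, which encodes the BH3-only protein NOXA, averaged 6.54 ± 2.54 FPKM in the spinal cord and 20.3 ± 1.69 FPKM in the spleen (log2 difference -1.55, limma adjusted p = 0.000489). Tnfrsf10b, the mouse TRAIL receptor, averaged 3.58 ± 1.04 FPKM in the spinal cord and 10.6 ± 0.522 FPKM in the spleen (limma adjusted p = 0.000936). The last was Bid, another BH3-only gene, named after its values were seen, at 9.09 ± 1.34 FPKM in the spinal cord and 23.0 ± 5.29 FPKM in the spleen. All 5 calls held with equal totals and after quantile normalization. The Bcl2 family members that GIMAP proteins have been reported to bind are not analysed here.

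Signalling by cytokines of the common gamma chain, on which lymphocyte survival depends, had 17 genes on its list. Of these, 4 had a row and all 4 rose with the values as deposited, with a median log2 difference of 1.75. Il7r, the interleukin 7 receptor, stood at 42.33, 35.26 and 32.94 FPKM in spinal cord libraries, against 6.74, 7.14 and 9.49 FPKM in spleen libraries (log2 difference 2.11, SE 0.23, limma adjusted p = 1.12e-05). Socs3, an inhibitor of cytokine signalling, was 8.54-fold higher in the spinal cord, at 61.9 ± 11.9 FPKM against 7.25 ± 1.2 FPKM in the spleen. Pim1, a survival kinase, averaged 72.2 ± 29.6 FPKM in the spinal cord and 25.5 ± 3.16 FPKM in the spleen, a call that ended with equal totals (limma adjusted p = 0.177). Socs1, a second inhibitor, averaged 320.4 ± 78.6 FPKM in the spinal cord and 169.3 ± 19.9 FPKM in the spleen, but its log2 difference was -0.04 with equal totals and 0.17 after quantile normalization, with no call (limma adjusted p = 0.914 and 0.409).

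The list of quiescence and recirculation of T cells was read for 16 genes, and all 5 with a row rose with the values as deposited, at a median log2 difference of 1.63. S1pr1, the sphingosine 1-phosphate receptor that lets T cells leave lymph nodes, stood at 59.36, 44.04 and 68.75 FPKM in spinal cord libraries, against 11.61, 8.41 and 12.69 FPKM in spleen libraries (log2 difference 2.29, limma adjusted p = 7.41e-06). Ccr7 had a log2 difference of 2.11 (SE 0.13). Tsc22d3, a glucocorticoid-induced gene, averaged 11.7 ± 3.96 FPKM in the spinal cord and 3.53 ± 2.7 FPKM in the spleen. Satb1, a chromatin organizer of T cells, was 3.1-fold higher in the spinal cord, a log2 difference of 1.56 (SE 0.30, limma adjusted p = 0.000473). With equal totals 2 of the 5 were called, namely S1pr1 and Ccr7, and after quantile normalization all 5.

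Of 27 autophagy genes only Gabarap, an Atg8 family gene, had a row. It stood at 277.51, 296.37 and 270.56 FPKM in spinal cord libraries, against 123.71, 144.84 and 125.08 FPKM in spleen libraries. The log2 difference of Gabarap was 1.10 (SE 0.14, limma adjusted p = 2.89e-05), and the call ended with equal totals (0.17, adjusted p = 0.415) and after quantile normalization (0.32, adjusted p = 0.052). Of 18 genes of the mitochondrial outer membrane and calcium handling none had a row.

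Other immune GTPases, the guanylate-binding proteins and immunity-related GTPases of cell-autonomous defence, were read beside the GIMAPs. Of 19 genes 10 had a row and all 10 rose with the values as deposited, at a median log2 difference of 1.39. The rises with the largest log2 difference were in Gbp10 (2.51, SE 0.35), Gbp5 (2.37, SE 0.41), Gbp2 (1.64, SE 0.22) and Gbp4 (1.51, SE 0.28), all close paralogs. With equal totals 3 of the 10 were called, and after quantile normalization 9.

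**Figure D5:**
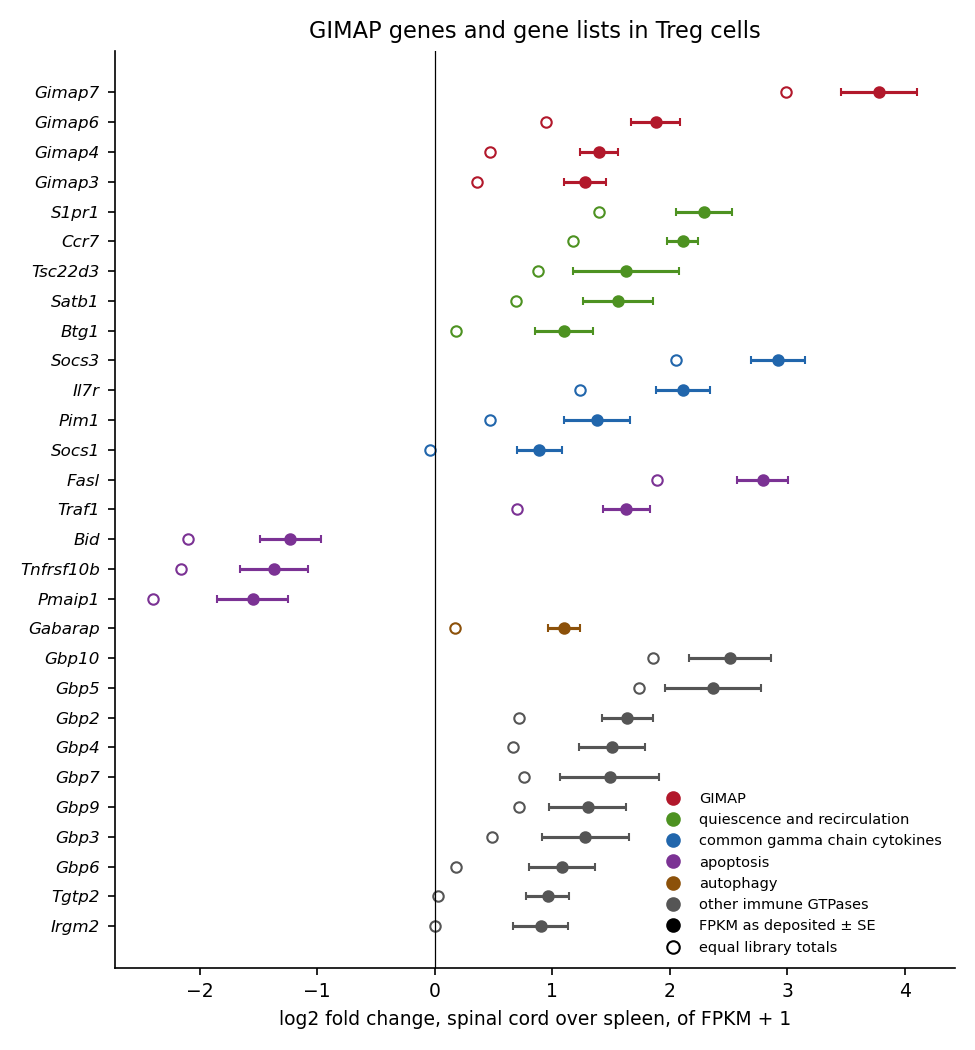
Log2 difference of FPKM + 1, spinal cord over spleen (horizontal axis), for the 4 GIMAP genes and for the tested genes counted from the lists in the legend. Some of these list genes are not named in the text. Filled points are the values as deposited with their SE, and open points are those with equal library totals. Gimap7 has the largest filled value (3.78), Socs1 crosses 0 with equal totals (-0.04), and Bid, Tnfrsf10b and Pmaip1 lie below 0 on both scales.

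Few neighbours of the cluster had a row. Of 142 RefSeq genes within 1 megabase of it, 7 had a row in the Treg table, the 4 GIMAP genes and 3 zinc finger or RNA-binding genes farther away. Igf2bp3, an RNA-binding protein gene 314.4 kb beyond the cluster, averaged 6.53 ± 1.96 FPKM in the spinal cord and 16.9 ± 2.71 FPKM in the spleen (log2 difference -1.28, SE 0.29, limma adjusted p = 0.00128). Zfp956, 681.9 kb before the cluster, averaged 2.61 ± 0.809 FPKM in the spinal cord and 6.34 ± 1.12 FPKM in the spleen (-1.04, SE 0.30, limma adjusted p = 0.00601). Zfp467, 201.2 kb before it, stood at 4.93, 2.73 and 2.22 FPKM in spinal cord libraries, against 0.73, 3.13 and 0 FPKM in spleen libraries. Its groups overlapped, and its call (limma adjusted p = 0.0346) ended under both scalings and without spinal cord library 1 or 2 or spleen library 1 or 3, with log2 differences of 0.63 to 1.18 in those fits.

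The label of the cells was read against markers. The T cell list had 2 of 14 genes with a row, Cd2 at 1626.6 ± 144.4 FPKM in the spinal cord and 708.6 ± 26.3 FPKM in the spleen, and Thy1. The call of Cd2 ended with equal totals and after quantile normalization. Of 14 Treg genes 7 had a row and were expressed in every library, and limma called 5 of them higher in the spinal cord with the values as deposited, such as Ctla4 (log2 difference 2.23), and 2 lower, Nrp1 (-1.64) and Gpr83 (-1.17). The higher calls of Icos and Tnfrsf4 ended with equal totals (limma adjusted p = 0.319 and 0.183), and those of Tnfrsf18 and Tnfrsf4 after quantile normalization (limma adjusted p = 0.438 and 0.934), while both lower calls held. Among those not analysed here were Foxp3 and Il2ra. Markers of other cells were measured beside the GIMAP genes, since endothelial cells and other lymphocytes can also express GIMAP genes. The 3 of 14 endothelial markers with a row summed to 163.4 to 409.5 FPKM in spinal cord libraries and 39.4 to 44.4 FPKM in spleen libraries. Kdr was at 0 in every spleen library and in spinal cord libraries 1 and 3, and at 0.67 FPKM in spinal cord library 2. Most of the summed level was Ly6c1, also made by T cells, at 347.63, 152.97 and 395.46 FPKM in spinal cord libraries. Pecam1 stood at 24.88, 9.72 and 14.08 FPKM in spinal cord libraries, against 5.63, 9.91 and 7.05 FPKM in spleen libraries.

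Of 13 B cell markers only Cd79b had a row, at 5.38, 3.13 and 2.66 FPKM in spinal cord libraries and at 0 in every spleen library. The 5 of 14 cytotoxic lymphocyte genes (of CD8, NK and gamma-delta T cells) with a row summed to 63.4 to 78.6 FPKM in spinal cord libraries and 120.5 to 125.8 FPKM in spleen libraries, with Klrb1c and Prf1 at 0 in every spleen library. Xcl1, a chemokine gene, made up most of that sum in the spleen libraries and in spinal cord library 2. In the other spinal cord libraries the remaining 4 genes together slightly exceeded it. Xcl1 stood at 31.22, 61.92 and 33.28 FPKM in spinal cord libraries, against 115.1, 114.3 and 116.05 FPKM in spleen libraries. The means of the other 4 were higher in the spinal cord, as were the GIMAP genes, such as Klrc1 at 17.5 ± 6.74 FPKM in the spinal cord and 6.48 ± 2.22 FPKM in the spleen. The 5 of 19 microglia and macrophage markers with a row summed to 51.0 to 66.8 FPKM in spinal cord libraries and 9.77 to 18.8 FPKM in spleen libraries, with C1qb at 0 in every spleen library. The 2 of 12 neutrophil markers summed to 28.4 to 83.0 FPKM in spinal cord libraries and 4.22 to 9.77 FPKM in spleen libraries, and the 2 of 15 neural markers summed to 160.1 to 208.6 FPKM in the spinal cord and 53.1 to 58.1 FPKM in the spleen, nearly all of it Cnp. The part of these cells in the GIMAP levels was not tested.

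In the microglia, none of the 8 GIMAP genes had a row, and they are not analysed here. That table was normalized separately, and limma called 817 of its 1529 genes (53.4%) higher in co-culture and 712 (46.6%) lower, with 42.4% of the calls higher with equal totals. Of the T cell markers 4 of 14 had a row. Cd28 averaged 1.4 FPKM in co-culture and 11.5 FPKM in control microglia, and Thy1 averaged 11.5 FPKM in co-culture and 32.7 FPKM in control microglia, both lower in co-culture (limma adjusted p = 4.78e-08 and 0.0028). Cd5 and Lck lay under 1 FPKM in every library of either group. The GIMAP-related lists gave other counts here than in the Treg cells, and no test compared the tables. All 15 immune GTPases and all 10 gamma chain genes with a tested row rose in co-culture, and of 9 regulators of apoptosis 8 rose and 1 fell. Gbp2 averaged 2063.9 FPKM in co-culture and 17.8 FPKM in control microglia, and Socs1 averaged 382.8 FPKM in co-culture and 5.48 FPKM in control microglia. The 3 autophagy genes with a row fell, and of 3 tested genes of quiescence and recirculation 2 rose and 1 fell, against 1 and 1 with equal totals.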

How the data were processed

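Bulk messenger RNA libraries of Treg cells (3 from the injured spinal cord, 3 from the spleen) and of microglia (3 co-cultured, 3 control) were grouped by their titles, per the labels. Each comparison had 1 deposited table with the authors' FPKM per library, per the file headers. Each deposited table also held the authors' log2 fold change and Q value, whose method no source used here states. The submitters' processing notes list Bowtie2, RSEM 1.3.1, DESeq2 1.4.5 and GRCm38.p6 and give no roles. Every deposited row had a log2 fold change of 1 or more in size (smallest 1.0007 for Treg cells, 1.0006 for microglia) and Q under 0.05 (largest 0.0498 and 0.0497), so adjusted p-values describe a preselected set. The authors' log2 fold changes in their deposited tables were above the log2 of the ratio between mean FPKM, by a median of 0.1181 (Treg cells) and 0.2121 (microglia). The header of the microglia fold change names a word that no label uses, and it was read as co-culture over control, which its sign matched in all 2186 genes. Depth is unknown, so no counting interval is given. Copies of a library were not seen, since at most 0.628% of genes in Treg pairs and 3.44% in microglia pairs had equal values above 0.

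A mean of 1 FPKM or more was required (1072 of 1284 and 1529 of 2186). The log2 of FPKM plus a pseudocount of 1 was tested per table with limma 3.58.1 in R 4.3.3 (trended eBayes, prior degrees of freedom 7.86 and 2.94), with Benjamini-Hochberg adjustment over those genes and a threshold of 0.05. Tested on simulated data, the Treg fit (1072 genes) recovered 69% of genes changed by 1 and 93% of those changed by 2 on the log2 scale, with 1.2% of calls false, and the microglia fit (1529 genes) 96% and 100%, with 2.5% false. In each simulation 100 genes were changed by each size, the others were unchanged, and libraries had no difference in scale. The deposited genes were preselected as changed and their library totals differ, so these rates do not carry over to them. The members and the gene lists were chosen with earlier results of these data known, and the members' own contrast was not tested. From 2 of the lists 1 gene each is not reported here. Other genes named are those within 1 megabase of the cluster, the 8 nearest profiles, up to 4 called genes of each list with the largest absolute log2 difference, the markers, and exceptions marked as such. Promoters came from RefSeq (GRCm38.p6, all 4 genes matched) and coding sequences from GENCODE (GRCm38), compared with Biopython 1.88. Gene IDs matched RefSeq for 1282 of 1284 Treg genes. Python 3.11.15 with pandas 2.3.3, numpy 2.4.6 and matplotlib 3.10.9 did the other steps. Alternatives were another pseudocount, filter, scaling, variance model and replicate block, and leaving out each library in turn.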

Additional observations from a re-analysis of the deposited data

How the results depend on the processing

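With equal library totals the Treg calls numbered 680 in all and 266 higher, against 1068 and 654 as deposited, and the microglia calls higher in co-culture 537, against 817. The log2 differences of the GIMAP genes were then 0.36 (Gimap3), 0.47 (Gimap4), 0.95 (Gimap6) and 2.99 (Gimap7), and 0.64, 0.64 and 1.21 for Gimap3, Gimap4 and Gimap6 after quantile normalization, each in the same direction. The cause of the difference in totals was not tested. In the microglia a minimum mean of 5 FPKM left 1001 calls with 341 lower, and no minimum gave 1150 lower, against 1529 and 712, because fewer or more genes were tested.

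Leaving out 1 library at a time gave 620 to 631 higher and 408 to 412 lower Treg calls, and 816 to 817 higher and 712 lower microglia calls. Of the list genes and markers, such fits ended the calls of Pecam1 (without spinal cord library 1 or spleen library 1), Thy1 (without spinal cord library 2 or spleen library 1 or 2) and Nefh (without spleen library 1 or 2). Same-numbered Treg libraries did not deviate together (correlations of 0, -0.04 and -0.05), nor did all microglia libraries (-0.04, 0.15 and 0.17). Differently numbered microglia libraries had correlations from -0.29 to 0.27. Libraries of 1 animal or culture need not deviate together, so these values cannot decide whether the numbers pair the samples. With the replicate block 650 Treg genes were called higher and 414 lower, 1064 in all, and 817 higher and 712 lower microglia genes. The GIMAP differences stayed at 1.28, 1.4, 1.88 and 3.78, as they must, since a block cannot alter a difference in this balanced design. Of the other results under their alternatives, 268 were labelled the same and 10 weaker. These numbers are no measure of stability. A share with 1 library left out could not move by more than its SD. Many list counts had no called gene under any setting. The unknown depth limits the precision of Gimap7 in the spleen.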

Other observations

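Of 21 transcription factors of lymphocytes 3 had a row in the Treg table, and all 3 rose as deposited, at a median log2 difference of 0.96 beside 0.95 for all genes tested. Rora, a nuclear receptor of tissue lymphocytes, had 32.45, 40.66 and 32.46 FPKM in spinal cord libraries, against 8.01, 8.69 and 10.86 FPKM in spleen libraries (log2 difference 1.83, SE 0.23, limma adjusted p = 2.61e-05). Runx2 averaged 3.91 ± 1.19 FPKM in the spinal cord and 1.5 ± 0.409 FPKM in the spleen, and Myb averaged 9.57 ± 1.33 FPKM in the spinal cord and 4.41 ± 0.45 FPKM in the spleen. The calls of Runx2 and Myb ended with equal totals (limma adjusted p = 0.446 and 0.72) and after quantile normalization (0.269 and 0.0588). In the microglia, of 4 tested genes of this list 2 rose and 2 fell in co-culture.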
